A study of Mus musculus with 12 samples.

Results

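Glycogen breakdown and glycolysis were followed through 10 enzyme genes, Pygm, Gpi1, Pfkm, Aldoa, Gapdh, Pgk1, Pgam2, Eno3, Pkm and Ldha, each taken by its symbol from a table of 30488 gene symbols. All 10 were found. RNA sequencing had been done on gastrocnemius, the large calf muscle, of 12 mice on a standard diet at 32 weeks of age, 3 mice in each of 4 groups. The study concerns what GMPPB does in muscle; the GMPPB protein, GDP-mannose pyrophosphorylase B, forms the mannose donor that glycosylation needs. WT mice carried no engineered allele. KO mice were heterozygous, with 1 Gmppb copy that had lost exons 2 and 3 (303 bp) to Cas9. P32L mice were heterozygous for a C-to-T substitution at base 95, which puts leucine in place of proline at residue 32. R287Q mice were homozygous for a G-to-A substitution at base 860, which puts glutamine in place of arginine at residue 287. The alleles are carried by the animal and not restricted to muscle. The labels give no number of founders, no sex and no feeding state, and nothing in them says how the mice of a group were related, so p-values measure the spread between these mice.

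Muscle stores glucose as glycogen. Glycogen phosphorylase cuts glucose units from it as glucose phosphate, and the enzymes of glycolysis turn these to pyruvate with a net gain of ATP; lactate dehydrogenase then reduces pyruvate to lactate, so that NAD is regenerated and the path can run without oxygen. Fast-twitch fibres, which make up most of the mouse gastrocnemius, depend on this route and carry muscle-specific isozymes for several of its steps. Fructose-6-phosphate, which Gpi1 forms, is also the point at which glycolysis is linked through mannose-6-phosphate to the mannose supply used by GMPPB.

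Levels are in TPM, reads divided by transcript length and scaled so that every library has the same sum, so that genes can be compared with each other but the sequencing depth is unknown. The edited gene was low and did not separate the groups: Gmppb stood at 3.69 ± 0.702 TPM in WT (mean ± SD, n = 3 mice per group throughout), 3.44 ± 0.154 TPM in KO, 3.46 ± 0.173 TPM in P32L and 3.76 ± 0.633 TPM in R287Q, so its level does not check the labels; a row summed over the whole gene need not show a heterozygous deletion or a substitution. The 8 genes that define skeletal muscle summed to between 22232 and 34267 TPM and none was at 0 in any mouse. Mitochondrially encoded transcripts took 53.0% to 58.4% of each library and 7 nuclear copies of them 19.6% to 21.0%. All other genes shared the remaining 21.2% to 27.4%, and this remainder was smallest in R287Q mouse 1 and largest in KO mouse 2.

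The 10 enzymes were among the abundant transcripts of the muscle and kept 1 order in every mouse. From high to low this order was Aldoa, Eno3, Pgam2, Pygm, Gapdh, Ldha, Pkm, Pfkm, Pgk1 and Gpi1, and each neighbouring pair stood in it in 12 of 12 mice. Aldoa, the muscle aldolase, ranked 27 among all genes by its mean level, with 5287 ± 714 TPM in WT. Gpi1, which interconverts glucose-6-phosphate and fructose-6-phosphate, ranked 522, with 62.2 ± 5.71 TPM in WT. Eno3 and Pgam2 were the only neighbours whose ranges overlapped among the WT mice, although Eno3 was 1.18 to 1.57 times Pgam2 within each mouse. Together the 10 rows summed to between 9705 TPM in R287Q mouse 1 and 15705 TPM in KO mouse 2, which was 0.972% to 1.57% of all TPM and 4.58% to 5.74% of the part outside mitochondrial genes and their copies. The places of Gapdh and Pgk1 in the order depend on how reads shared with near-identical copies were assigned, as given with those genes.

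**Figure D1:**
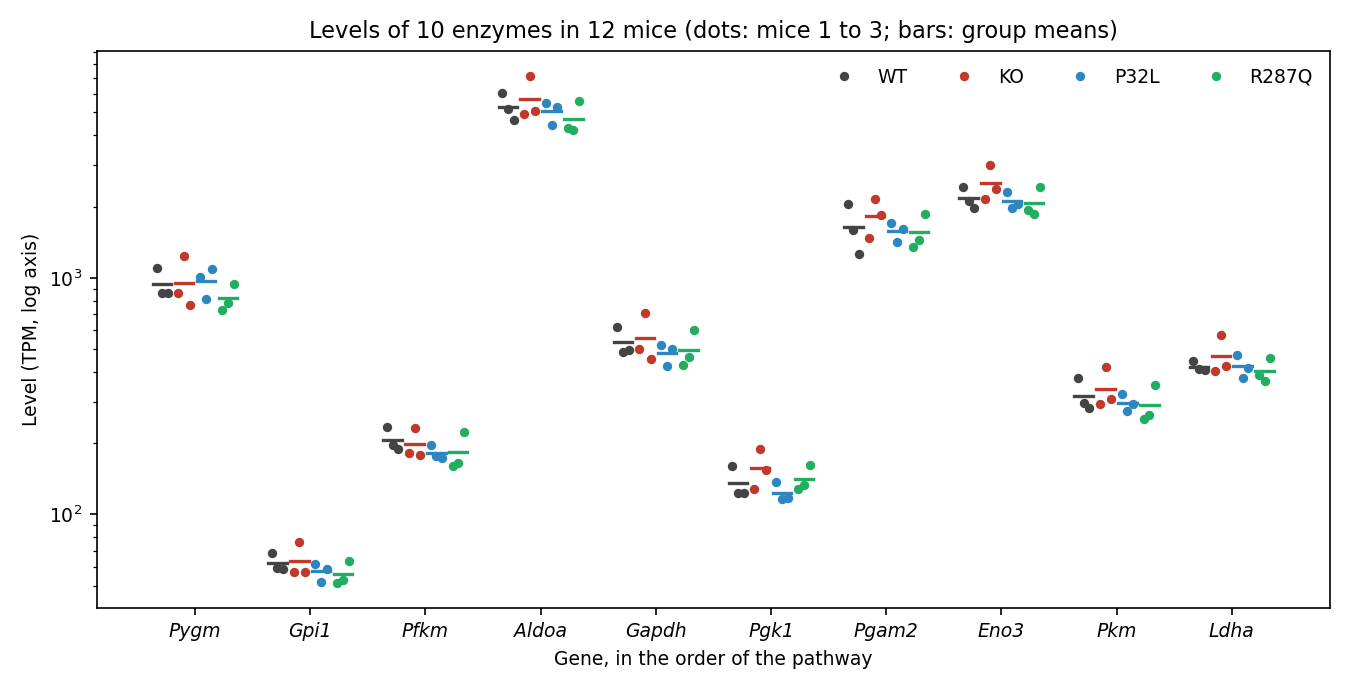
Level of each enzyme in TPM on a log axis, in the order of the pathway, for WT, KO, P32L and R287Q mice; dots are mice 1, 2 and 3 of a group from left to right and bars are group means. The dots of the 4 groups overlap for every gene, and the gap between Aldoa and Gpi1 is far wider than any spread between mice.

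Promoter windows of 4 members are shown because the 10 genes moved together from mouse to mouse while the sequence before their start sites is of more than 1 kind. RefSeq windows (GRCm38.p6, 250 bases before to 50 bases after a start site) were found for 10 of 10 genes, 17 windows in all. Some windows of Aldoa overlap each other, as do some of Pfkm, so a site there can count in more than 1 window. Pgam2 (chr11:5803747-5804046, minus strand) and Eno3 (chr11:70656926-70657225, plus strand) encode muscle isozymes and have 1 and 3 CpG dinucleotides in the window. Gpi1 (chr7:34230287-34230586, minus strand) and Pgk1 (chrX:106186850-106187149, plus strand) are used by most tissues and have 21 and 24, against a median of 7 over 32851 windows. These 4 windows have low or high counts but not the most extreme ones, and the members not shown do not all split this way. The Ldha windows have 30 and 13, and those of Pkm 27 and 23. The windows of the muscle isozyme Pfkm have 4, 9, 12 and 4 CpG dinucleotides, and those of Aldoa 0, 24 and 23. Capitals mark a GC box (GGGCGG, on either strand; neighbouring boxes in Pgk1 overlap) or a MEF2 site, the motif of the myocyte enhancer factor 2 family. The sequences run 5′ to 3′ on the strand of the gene.
Pgam2: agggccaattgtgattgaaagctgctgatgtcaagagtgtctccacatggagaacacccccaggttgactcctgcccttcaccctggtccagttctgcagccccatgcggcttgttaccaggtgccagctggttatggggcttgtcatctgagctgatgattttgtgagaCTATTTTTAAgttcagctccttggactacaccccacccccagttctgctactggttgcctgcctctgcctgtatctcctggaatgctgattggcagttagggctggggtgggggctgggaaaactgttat
Eno3: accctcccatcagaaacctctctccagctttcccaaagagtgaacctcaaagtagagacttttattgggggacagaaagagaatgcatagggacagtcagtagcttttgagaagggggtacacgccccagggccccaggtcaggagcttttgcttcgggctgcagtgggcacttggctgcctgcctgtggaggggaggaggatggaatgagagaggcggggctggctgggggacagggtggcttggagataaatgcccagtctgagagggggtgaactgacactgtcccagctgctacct
Gpi1: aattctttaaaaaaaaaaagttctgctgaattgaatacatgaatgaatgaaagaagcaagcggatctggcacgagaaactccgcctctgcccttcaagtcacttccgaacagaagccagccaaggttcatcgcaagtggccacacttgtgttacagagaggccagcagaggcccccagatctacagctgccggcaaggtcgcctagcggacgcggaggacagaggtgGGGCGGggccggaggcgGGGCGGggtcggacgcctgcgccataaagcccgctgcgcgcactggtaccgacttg
Pgk1: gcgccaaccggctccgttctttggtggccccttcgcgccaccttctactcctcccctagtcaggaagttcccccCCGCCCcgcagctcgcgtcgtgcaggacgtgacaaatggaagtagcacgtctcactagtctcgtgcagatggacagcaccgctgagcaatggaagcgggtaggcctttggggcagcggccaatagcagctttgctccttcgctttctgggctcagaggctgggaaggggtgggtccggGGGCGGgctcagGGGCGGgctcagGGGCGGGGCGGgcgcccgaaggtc

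The GC box was present in 6 of the 17 windows, which belong to Aldoa, Gpi1, Ldha, Pgk1 and Pkm, and in 35.7% of all windows, a like share. Pgk1 held 5 of them and Gpi1 held 2. The MEF2 site was found only in the Pgam2 window among the members, 80 bases before the RefSeq start, and in 1.86% of all windows; the GENCODE model of Pgam2 starts downstream of this window. A palindromic E-box (CACGTG) was found in 2 of the 17 windows, those of Ldha and Pfkm, and in 7.15% of all windows. The hypoxia response core (ACGTG or GCGTG, either strand), which the palindromic E-box overlaps, was found in 12 of the 17 windows, which belong to 8 of the 10 genes, and in 43.8% of all windows. TATAAA was in no member window and in 13.6% of all windows. These are matches of letters, not measured binding.

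None of the 10 enzymes passed the test against WT in any line. By limma, on log2(TPM + 1) over the 9152 genes whose mean reached 1 TPM, 0 of 10 passed an adjusted p (Benjamini-Hochberg over those genes) of 0.05 in KO, P32L or R287Q, and 0 of 10 had an unadjusted p below 0.05. The smallest limma adjusted p among the 10 was 0.898 in KO (Eno3), 0.999 in P32L (Pfkm) and 0.981 in R287Q (Pfkm). Over all genes the same rule called 0.0109% in KO (1 gene), 0.0437% in P32L (4 genes) and 0% in R287Q, with 545, 597 and 491 genes at an unadjusted p below 0.05. For 0 of 10 members were the 3 mice of a line all above or all below the 3 WT mice; over all genes this was so for 7.87% in KO, 9.21% in P32L and 9% in R287Q. The median log2 difference of the 10 from WT was 0.093 in KO, -0.074 in P32L and -0.12 in R287Q, where all genes had medians of 0.0063, 0.015 and -0.036. The 95% intervals over the 10 genes ran from -0.40 to 0.59 in KO, -0.54 to 0.45 in P32L and -0.60 to 0.41 in R287Q, so differences within those bounds were not resolved with 3 mice a group. These intervals take the mice as independent and may be too narrow if they are not. In bulk muscle, fewer cells of a type and less RNA per cell cannot be told apart.

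**Figure D2:**
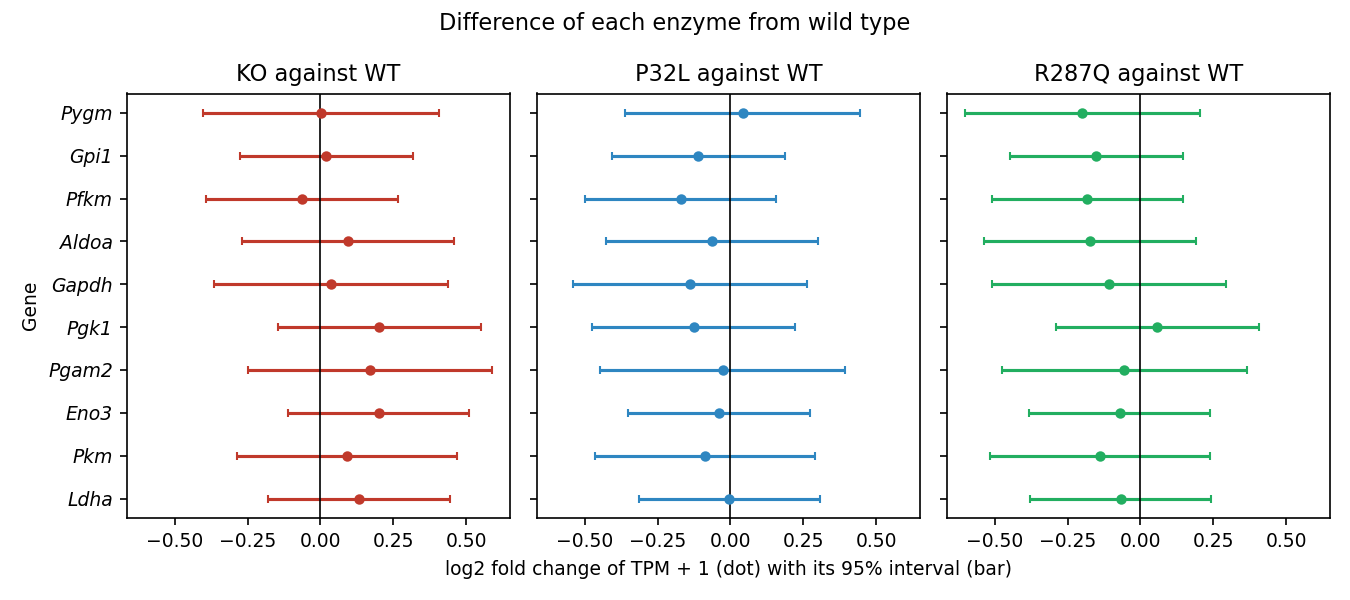
Difference of each enzyme from WT as a log2 fold change of TPM + 1 (dot) with its 95% interval (bar), for KO, P32L and R287Q mice. Every interval crosses 0; most KO dots lie to the right of 0 and most P32L and R287Q dots to the left.

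Glycogen phosphorylase, the entry from glycogen, was close to WT in KO and P32L and had its lowest mean in R287Q. Pygm (chr19:6384399-6398459, plus strand, mm10), the muscle phosphorylase whose loss causes McArdle disease in humans, stood at 1099.9, 859.7 and 862 TPM in WT mice 1, 2 and 3, 862, 1232 and 770.3 TPM in the KO mice, 1006, 813 and 1087 TPM in the P32L mice and 728, 785 and 942 TPM in the R287Q mice. KO mouse 2 was highest and R287Q mouse 1 lowest, and the groups overlapped. The log2 difference from WT was 0.0023 (95% interval -0.40 to 0.41, adjusted p = 0.998) in KO, 0.042 (95% interval -0.36 to 0.45, adjusted p = 0.999) in P32L and -0.20 (95% interval -0.60 to 0.20, adjusted p = 0.981) in R287Q. Pygm was also the enzyme that followed the others least. Relative to the mean of the other 9, it was 0.32 above its own average on the log2 scale in P32L mouse 3 and lower by the same measure (-0.25) in KO mouse 3, with an SD of 0.14 over the 12 mice.

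The preparatory steps, which spend ATP to split the sugar, had lower means than WT in P32L and R287Q, none past the test. Pfkm (chr15:98092589-98132451, plus strand), the muscle phosphofructokinase of the committed step, stood at 233, 196 and 189 TPM in WT mice 1, 2 and 3, 182, 233 and 179 TPM in the KO mice, 197, 176 and 174 TPM in the P32L mice and 160.2, 165 and 224 TPM in the R287Q mice. It was the only member that was highest in a WT mouse and the only one whose KO mean lay below WT. Its log2 difference was -0.062 (95% interval -0.39 to 0.27, adjusted p = 0.970) in KO, -0.17 (95% interval -0.50 to 0.16, adjusted p = 0.999) in P32L and -0.18 (95% interval -0.51 to 0.15, adjusted p = 0.981) in R287Q. Aldoa (chr7:126795234-126800751, minus strand), which cleaves fructose-1,6-bisphosphate, stood at 6059.6, 5151 and 4651 TPM in WT mice 1, 2 and 3, 4913, 7121 and 5051 TPM in the KO mice, 5477, 4422 and 5265 TPM in the P32L mice and 4283, 4232 and 5596 TPM in the R287Q mice. KO mouse 2 stood above every other mouse, while KO mice 1 and 3 lay within the WT range. The log2 difference of Aldoa was 0.094 in KO, -0.062 in P32L and -0.17 in R287Q. Gpi1 (chr7:34201330-34230336, minus strand) ranged from 51.6 TPM in R287Q mouse 1 to 76.4 TPM in KO mouse 2, with log2 differences of 0.020, -0.11 and -0.15. GENCODE holds a further gene model named Aldoa upstream of the main locus. Genes on the opposite strand overlap Gpi1 (Gm26762), Pfkm (Senp1) and Aldoa (Fam57b), and Gm26513 overlaps Pfkm on its own strand; the library kit is not stated to mark strand, so reads of such neighbours cannot be told apart.

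The row of Gapdh holds only a small part of the signal that matches its sequence. Gapdh (chr6:125161715-125166467, minus strand), which oxidises glyceraldehyde-3-phosphate and forms NADH, stood at 619, 484 and 497 TPM in WT mice 1, 2 and 3, 498, 711 and 453 TPM in the KO mice, 523, 425 and 501 TPM in the P32L mice and 428, 462 and 600.3 TPM in the R287Q mice. Among the rows of the same file, 77 other genes, nearly all annotated as processed pseudogenes, have a transcript that matches the Gapdh transcript at 95% identity or more over at least 200 bases, and 44 of them had a mean of at least 1 TPM. They summed to 16201 ± 1411 TPM in WT, 17868 ± 3582 in KO, 15015 ± 1564 in P32L and 14991 ± 2053 in R287Q, and the Gapdh row was 2.77% to 3.36% of row and copies together. The highest was Gm5559 on chromosome 5, with a mean of 1783 TPM and 99.9% identity over 1002 bases. Row and copies together exceeded Aldoa in 12 of 12 mice, so the place of Gapdh in the order of levels depends on how shared reads were assigned, and that step is not given in the sources used here. If shared reads were entered under more than 1 gene, the sum is too high. It leaves out Gapdh-ps16, whose symbol was not found in GENCODE. Iffo1 overlaps Gapdh on the opposite strand.

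**Figure D3:**
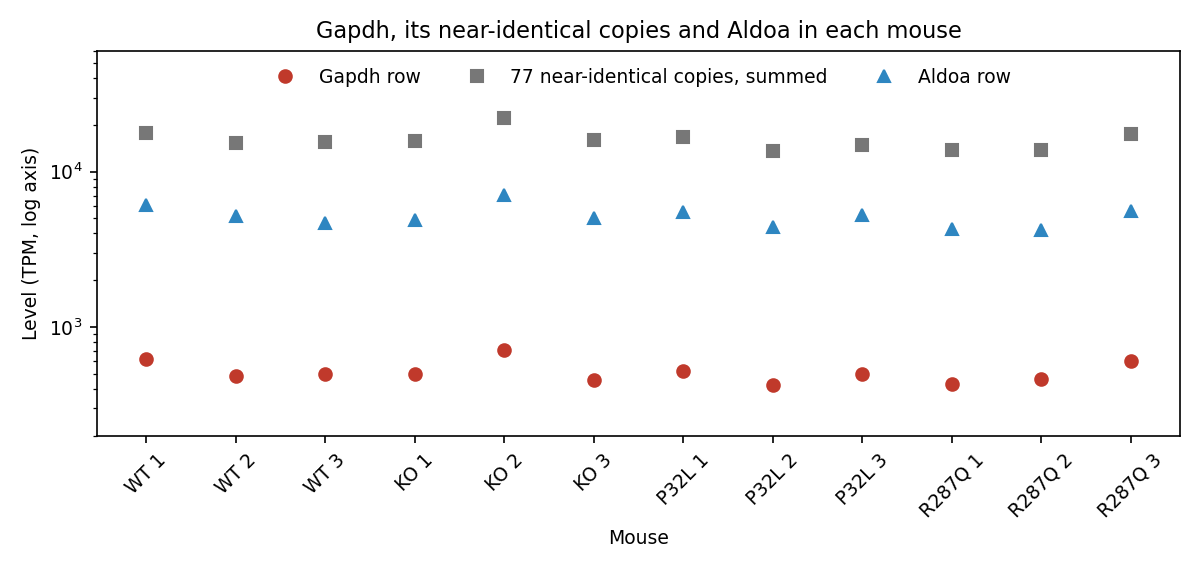
Level in TPM on a log axis of the Gapdh row, of its 77 near-identical copies summed and of the Aldoa row in each mouse. The copies lie above Aldoa and the Gapdh row below it in every mouse, and all 3 are highest in KO mouse 2.

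Neither the Gapdh row nor the row with its copies passed the test. On the log2 scale row and summed copies correlated with r = 0.942 over the 12 mice, which share their libraries and scaling. The log2 difference of the row from WT was 0.036 in KO, -0.14 in P32L and -0.11 in R287Q. With the copies added, a choice made after seeing the data, it was 0.12, -0.11 and -0.12, with limma adjusted p of 0.949, 0.999 and 0.981. Pgk1 had 3 such copies, at 35.7% of its own mean level, Pkm had 2 at 12.1% and Ldha had 4 at 1.04%. The other 6 enzymes had none. Gapdh is often used as a reference transcript, and in these libraries its row ranged 1.67-fold between mice.

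Phosphoglycerate kinase, the first step that returns ATP, had its highest mean in KO. Pgk1 (chrX:106187100-106203699, plus strand) stood at 160.4, 123 and 123 TPM in WT mice 1, 2 and 3, 128, 188 and 154 TPM in the KO mice, 137, 116 and 118 TPM in the P32L mice and 128, 133 and 161 TPM in the R287Q mice. KO mouse 2 was above every other mouse, KO mice 1 and 3 were within the WT range, and P32L had the lowest mean. The log2 difference from WT was 0.20 (95% interval -0.15 to 0.55, adjusted p = 0.909) in KO, -0.13 in P32L and 0.057 in R287Q; Pgk1 was the only member with a mean above WT in R287Q. With its copies added, row and copies of Pgk1 exceeded Pfkm in 4 of 12 mice.

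Phosphoglycerate mutase and enolase are present in adult muscle as muscle isozymes. Pgam2 (chr11:5801640-5803733, minus strand), the muscle mutase, stood at 2052, 1590.0 and 1257 TPM in WT mice 1, 2 and 3, 1477, 2152 and 1838 TPM in the KO mice, 1702, 1421 and 1607 TPM in the P32L mice and 1353, 1450.0 and 1861 TPM in the R287Q mice. The WT mice alone spanned nearly the whole range: mouse 3 had the lowest of the 12 values, and mouse 1 was exceeded only by KO mouse 2. The log2 difference was 0.17 (95% interval -0.25 to 0.59, adjusted p = 0.944) in KO, -0.026 in P32L and -0.056 in R287Q. Eno3 (chr11:70657202-70662513, plus strand), beta-enolase, stood at 2431, 2106 and 1976 TPM in WT mice 1, 2 and 3, 2154, 2997 and 2375 TPM in the KO mice, 2309.5, 1967 and 2053 TPM in the P32L mice and 1933, 1866 and 2419 TPM in the R287Q mice. KO mouse 2 was highest and KO mice 1 and 3 were within the WT range. The log2 difference was 0.20 (95% interval -0.11 to 0.51, adjusted p = 0.898) in KO, which had the smallest p of any member in this comparison, -0.039 in P32L and -0.071 in R287Q.

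Pyruvate kinase and lactate dehydrogenase end the path. Pkm (chr9:59656368-59679375, plus strand), whose M1 and M2 splice forms the row does not separate, ranged from 253 TPM in R287Q mouse 1 to 419.8 TPM in KO mouse 2. Its log2 difference was 0.092 in KO, -0.086 in P32L and -0.14 in R287Q, and of all members it stayed closest to the mean of the other 9, with an SD of 0.036 on the log2 scale. A gene on the same strand, Gm49759, overlaps Pkm. Ldha (chr7:46841475-46855627, plus strand), the A subunit of lactate dehydrogenase, stood at 446, 412 and 406 TPM in WT mice 1, 2 and 3, 405, 573 and 425 TPM in the KO mice, 473, 377 and 417 TPM in the P32L mice and 387, 365 and 458 TPM in the R287Q mice. The 3 WT mice were close together, between 406 and 446 TPM, and each line had mice on both sides of that range. The log2 difference was 0.13 in KO, -0.0034 in P32L and -0.068 in R287Q.

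The size of the differences as a set depended on single mice and on the scaling. In KO and P32L leaving out 1 mouse turned the median against WT, in KO also relative to all genes. After rescaling without mitochondrial genes and their copies, after median-of-ratios scaling and after quantile normalization, the median of the 10 was 0.023, 0.074 and 0.0081 in KO. It was -0.087, -0.090 and -0.039 in P32L and -0.046, -0.086 and -0.097 in R287Q, so no scaling turned a median. Less the median of all genes in the same setting, KO stood at 0.087 as deposited, then at 0.080, 0.082 and 0.026. By that measure P32L stood at -0.089, then at -0.094, -0.093 and -0.035. R287Q stood at -0.087, then at -0.075, -0.079 and -0.090. In KO, 9 of 10 means were above WT with TPM as deposited, 6 of 10 after the rescaling and 5 of 10 after quantile normalization. The median of the 10 in KO was -0.073 without KO mouse 2, where 3 of 10 were above WT and all genes had -0.029. It was 0.19 without KO mouse 1, 0.16 without KO mouse 3, 0.19 without WT mouse 1 and 0.000927 without WT mouse 3. In P32L, 9 of 10 means were below WT with TPM as deposited and 9 of 10 after rescaling. The median in P32L was 0.039 without WT mouse 1, -0.16 without WT mouse 3, -0.14 without P32L mouse 1 and -0.010 without P32L mouse 2. Without WT mouse 1 all genes had a median of 0.056, so the 10 still lay below it. In R287Q, 9 of 10 means were below WT with TPM as deposited and 6 of 10 after rescaling. The median in R287Q was -0.019 without WT mouse 1, -0.21 without WT mouse 3, -0.046 without R287Q mouse 1, -0.070 without R287Q mouse 2 and -0.25 without R287Q mouse 3. The 3 comparisons share the same 3 WT mice, and none of these settings brought any member past the threshold.

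The 10 enzymes varied together between mice of the same group. The mean of the 10, each centred on its own mean over 12 mice, had an SD of 0.206 between mice of a group on the log2 scale. With mice taken as independent, this gives a mean of 3 mice a standard error of 0.119. The 4 group means had an SD of 0.0873, below that standard error. All 10 were above their own averages in WT mouse 1, KO mouse 2 and R287Q mouse 3, and all 10 below in WT mouse 3, KO mouse 1, P32L mouse 2 and R287Q mice 1 and 2. Over the 45 pairs of members, r across the 12 mice ran from 0.517 for Pygm with Pgk1 to 0.974 for Gpi1 with Aldoa, with a median of 0.882. The same libraries and the same scaling enter every one of these values: the median r of all 9152 genes with the mean of the 10 was 0.453.

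The mean of the 10 followed the share of TPM left by mitochondrial transcripts and their nuclear copies. Over the 12 mice Pearson's r was 0.933 and Spearman's rho 0.958, and r was 0.866 without KO mouse 2 and R287Q mouse 1, the mice with the most extreme shares. The members are part of that share, and both quantities come from the same libraries. After rescaling to the genes outside it, the SD of the mean of the 10 between mice of a group was 0.0984, and the pairwise correlations had a median of 0.626 and a range of -0.077 to 0.940. The rescaled mean of the 10 had r = 0.646 and rho = 0.559 with the share, and r = 0.327 without the same pair of mice. All 10 genes remained above their averages in KO mouse 2 and R287Q mouse 3, and 9 in WT mouse 1. In WT mouse 3 and KO mouse 1 the count above average went from 0 to 6 and from 0 to 8, and in P32L mouse 1 it went from 9 to 2. KO mouse 2 had the highest mean of the 10 on the deposited scale, after this rescaling and after median-of-ratios scaling.

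**Figure D4:**
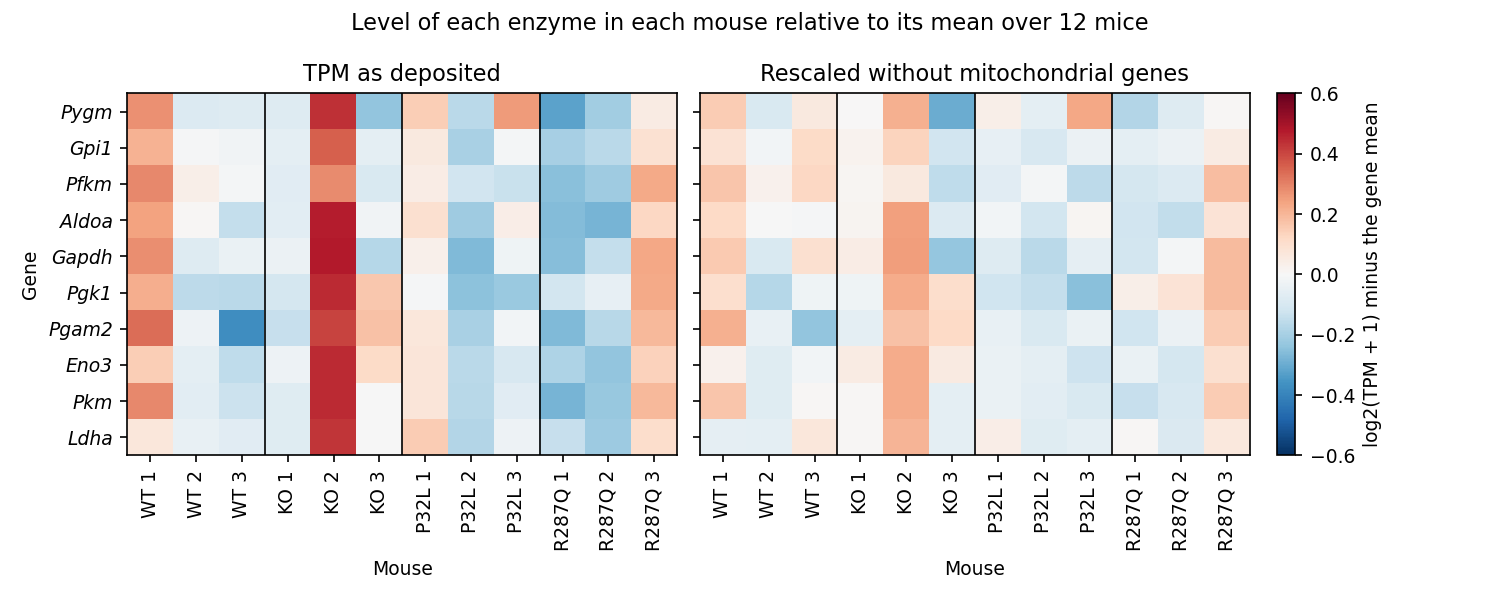
Level of each enzyme in each mouse as log2(TPM + 1) less the gene's mean over 12 mice, for TPM as deposited (left) and rescaled without mitochondrial genes and their copies (right), with red above and blue below the mean. Columns are more uniform than rows on the left; after rescaling the colours fade, and KO mouse 2 and R287Q mouse 3 are still above average for all 10 genes.

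Fibre-type transcripts also moved with the enzymes from mouse to mouse. The 11 measured genes of slow fibres, such as the slow myosin heavy chain Myh7 and the slow troponin Tnnt1, were averaged in the same way. This slow-fibre mean was low in P32L mouse 3 (-2.09), KO mouse 2 (-1.41) and R287Q mouse 3 (-0.94) and high in R287Q mouse 2 (1.27), KO mouse 3 (1.21) and R287Q mouse 1 (1.15), on the log2 scale. On the deposited scale the mean of the 10 enzymes had r = -0.57 and rho = -0.57 with it over 12 mice, r = -0.61 without KO mouse 2 and P32L mouse 3, and r = -0.69 within groups. With a mean of 12 genes of fast fibres r was 0.791 and rho 0.811, and r was 0.723 without KO mouse 2 and R287Q mouse 2. The enzymes were also rescaled without mitochondrial genes and their copies, with the fibre means left on the deposited scale. The fast-fibre mean then gave r = 0.507 and rho = 0.469, and r = 0.289 without KO mouse 2 and R287Q mouse 2. The slow-fibre mean gave r = -0.46 and rho = -0.54, and r = -0.60 without KO mouse 2 and P32L mouse 3. Against WT, 10 of 11 slow-fibre genes were lower in KO, 11 of 11 were lower in P32L with a median log2 difference of -1.12, and 10 of 11 were higher in R287Q, with 0 called in each by limma. These values rested on single mice. Without P32L mouse 3 the P32L median was -0.30, with 9 of 11 lower, and without KO mouse 2 the KO median was 0.33, with 2 of 11 lower. Without R287Q mouse 1 or 2 the R287Q median was -0.16 or -0.19, and without R287Q mouse 3 it was 1.04. With the slow-fibre mean as a covariate, the median log2 difference of the 10 enzymes was 0.035 in KO, -0.22 in P32L and -0.095 in R287Q, and no enzyme was called.

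Macrophage markers had higher means in KO than in WT, and their summed levels overlapped. Singly, Cd14, Mpeg1 and Ctss were higher in every KO mouse than in every WT mouse, and the other listed markers overlapped. Over all genes 7.87% did not overlap in this comparison. The summed level of 10 macrophage markers was 49.5 to 158 TPM in WT and 145 to 247 TPM in KO, highest in KO mouse 2, with none at 0, and 9 of 9 tested were higher than WT, with a median log2 difference of 0.91 and 0 called. That median was 0.69 without KO mouse 2 and 0.51 without WT mouse 2. Their part in the enzyme values was not tested.

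**Figure D5:**
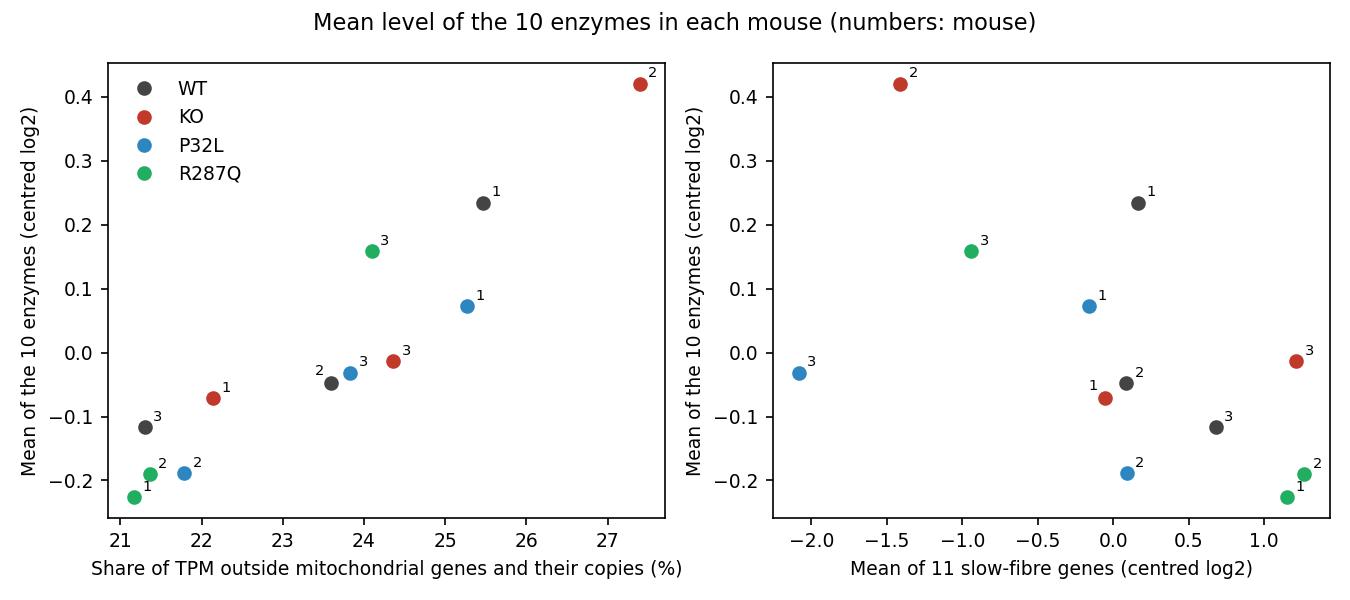
Mean of the 10 enzymes in each mouse (centred log2) against the share of TPM outside mitochondrial genes and their nuclear copies in percent (left) and against the mean of 11 slow-fibre genes (right), with mice coloured by group and numbered. KO mouse 2 has the highest mean of the enzymes in both panels, and R287Q mice 1 and 3 lie far apart although they share a group.

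Between the lines no enzyme passed the test either. P32L against KO, the 2 heterozygous lines, gave 0 of 10 called by limma where 0.0219% of all genes were called. In P32L 9 of 10 means were lower, and Pygm was the exception. The median log2 difference was -0.17, where all genes had 0.0046. The members with the smallest p were Pgk1, -0.33 (95% interval -0.68 to 0.020, adjusted p = 0.650), and Eno3, -0.24 (95% interval -0.55 to 0.072, adjusted p = 0.703). R287Q against KO gave 0 of 10 called, with 0.0437% of all genes called. All 10 means were lower in R287Q, with a median of -0.20 where all genes had -0.046; Eno3 stood at -0.27 (95% interval -0.58 to 0.040, adjusted p = 0.684) and Aldoa at -0.27 (95% interval -0.63 to 0.097, adjusted p = 0.721). R287Q against P32L gave 0 of 10 called, with 0% of all genes called. The median was -0.037 where all genes had -0.049, and 6 of 10 members lay above that all-gene median. Pygm stood at -0.24 (95% interval -0.64 to 0.16, adjusted p = 0.867) and Pgk1 at 0.18 (95% interval -0.17 to 0.53, adjusted p = 0.881). In these 3 comparisons 0 of 10 members had an unadjusted p below 0.05. Without KO mouse 2 the median was 0.010 for P32L against KO and -0.040 for R287Q against KO, where all genes had 0.041 and -0.0079.

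At each step with more than 1 measured isozyme, the muscle form made up nearly all of the signal in every mouse. Pygm was 99.7% to 99.9% of the phosphorylase TPM, with the brain form Pygb at 0.627 to 1.25 TPM and the liver form Pygl at 0.278 to 0.999 TPM. Pfkm was 98.9% to 99.3% of phosphofructokinase, with Pfkl at 0.883 to 1.47 TPM and Pfkp at 0.387 to 0.650 TPM. Pgam2 was 99.3% to 99.7% of mutase, with Pgam1 at 6.18 to 9.63 TPM. Eno3 was 98.8% to 99.3% of enolase, with Eno1 at 13.1 to 19.8 TPM, Eno1b at 1.96 to 3.00 TPM and the neuronal Eno2 at 0.185 to 0.571 TPM. Aldoc and Gapdhs stayed at or below 0.212 TPM.

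Lactate dehydrogenase was the step with the most of a second form. Ldhb, the subunit that is abundant in heart and slow fibres, stood at 19.8, 19.5 and 18.9 TPM in WT mice 1, 2 and 3, 16.7, 17.7 and 33.6 TPM in the KO mice, 21.4, 15.3 and 16.0 TPM in the P32L mice and 26.9, 33.8 and 14.0 TPM in the R287Q mice. It was highest in R287Q mouse 2, KO mouse 3 and R287Q mouse 1, the 3 mice with the highest slow-fibre means, and Ldha was 91.5% to 97.0% of the step. The log2 ratio of Ldha to Ldhb differed from WT by -0.013 in KO, 0.16 in P32L and -0.33 in R287Q. Over 15 such tests at 5 steps, exact two-sided permutation tests of 3 against 3 mice gave a smallest p of 0.2 and a smallest adjusted p of 0.6; the design cannot go below 0.1. Among the other steps, the log2 ratio of Pygm to the sum of Pygb and Pygl differed from WT by -0.65 in R287Q and -0.34 in KO. Pgk2, Pklr and Ldhc were not analysed here.

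Around the 10 enzymes, 8 lists of related genes gave 0 calls by limma in each line. Of glucose entry, 3 of 8 genes were measured above the filter; 2 were lower than WT in KO and 3 in each of P32L and R287Q. Hk2, the muscle hexokinase, differed by -0.19 (adjusted p = 0.898) in KO and -0.11 (adjusted p = 0.999) in P32L, and the glucose transporter Slc2a1 by -0.15 (adjusted p = 0.981) in R287Q. Of 7 further genes of glycogen breakdown, 2 were lower in KO, 4 in P32L and 6 in R287Q, with medians of 0.0014, -0.0058 and -0.14. Phkg2, a catalytic subunit of phosphorylase kinase, differed by 0.20 (adjusted p = 0.790) in KO and -0.073 (adjusted p = 0.999) in P32L, and Gaa, the lysosomal glucosidase of Pompe disease, by -0.32 (adjusted p = 0.980) in R287Q.

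Genes of glycogen synthesis and quality control had lower means in most cases. Of 10 tested, 8 were lower than WT in KO, 8 in P32L and 10 in R287Q, with medians of -0.10, -0.11 and -0.14 beside 0.0063, 0.015 and -0.036 over all genes. The gene with the smallest p in each line was Nhlrc1, which encodes malin, a ubiquitin ligase that restrains glycogen build-up and is lost in Lafora disease. Nhlrc1 stood at 11.9, 9.80 and 9.24 TPM in WT mice 1, 2 and 3, 7.34, 9.15 and 7.80 TPM in the KO mice, 7.85, 6.48 and 8.26 TPM in the P32L mice and 6.48, 7.62 and 7.48 TPM in the R287Q mice. Every mouse of the 3 lines was below every WT mouse. Taking each line alone, 7.87% of all genes in KO, 9.21% in P32L and 9% in R287Q did not overlap WT. The share that did so in all lines at once was not determined. The log2 difference was -0.31 (adjusted p = 0.722) in KO, -0.41 (adjusted p = 0.414) in P32L and -0.46 (adjusted p = 0.509) in R287Q, so it did not pass the test over all genes, and the 3 comparisons rest on the same WT mice.

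Tpi1 and the other isozymes of glycolysis formed a list of their own. Tpi1, triose phosphate isomerase, stood at 1484 ± 130.2 TPM in WT, 1642 ± 249.9 in KO, 1436 ± 72.6 in P32L and 1489 ± 172 in R287Q. Of the 7 tested genes of that list, 6 were higher than WT in KO, 5 in P32L and 6 in R287Q; Pgam1 differed by -0.18 (adjusted p = 0.906) in KO, and Eno1 by 0.11 (adjusted p = 0.999) in P32L and 0.25 (adjusted p = 0.981) in R287Q. Of 11 regulators of glycolysis, 5 were higher in KO, 3 in P32L and 3 in R287Q. Pfkfb3, which makes the activator of phosphofructokinase, differed by 0.58 (adjusted p = 0.920) in P32L, and the glucose-sensing factors Mlxipl by -0.20 (adjusted p = 0.789) in KO and Mlxip by -0.26 (adjusted p = 0.980) in R287Q.

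Pyruvate leaves the path as lactate or enters mitochondria through pyruvate dehydrogenase. Of 16 genes tested here, 10 were higher than WT in KO, 5 in P32L and 11 in R287Q, with medians of 0.046, -0.034 and 0.033. Pdk4, the kinase that switches pyruvate dehydrogenase off and is known to rise with fasting, stood at 17.0, 32.0 and 24.2 TPM in WT mice 1, 2 and 3, 39.8, 75.9 and 117 TPM in the KO mice, 106, 40.0 and 47.4 TPM in the P32L mice and 100.1, 88.2 and 52.4 TPM in the R287Q mice. All 9 mice of the lines were above the highest WT mouse. Pdk4 was picked as the gene of this list with the smallest p in each line. Within single lines, 7.87% of all genes in KO, 9.21% in P32L and 9% in R287Q did not overlap WT, and the lines share their WT mice. The log2 difference was 1.54 (adjusted p = 0.546) in KO, 1.27 (adjusted p = 0.533) in P32L and 1.67 (adjusted p = 0.518) in R287Q, so it did not pass the test in any line.

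The NADH shuttles and the phosphagen system share cofactors with glycolysis. Of 8 shuttle genes tested, 4 were lower than WT in KO, 8 in P32L and 5 in R287Q; Slc25a11, the mitochondrial oxoglutarate carrier, differed by 0.094 (adjusted p = 0.955) in KO, and Got2, the mitochondrial aspartate aminotransferase, by -0.19 (adjusted p = 0.999) in P32L and 0.084 (adjusted p = 0.988) in R287Q. Of 6 genes of creatine kinase and adenylate metabolism, 5 were higher in KO, 4 in P32L and 1 in R287Q. Ampd1, the muscle AMP deaminase, differed by -0.23 (adjusted p = 0.898) in KO and -0.37 (adjusted p = 0.847) in R287Q, and the creatine kinase Ckb by -0.38 (adjusted p = 0.778) in P32L.

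Among genes outside the set, the 5 whose log2 levels followed the mean of the 10 most closely over the 12 mice were Ess2 (r = 0.975), Pih1d1 (0.972), Get3 (0.969), Myom2 (0.967) and Tcf25 (0.961). They were picked from 9152 genes for this value, which is a description of these libraries. After rescaling without mitochondrial genes, Myom2, which encodes a protein of the sarcomeric M-band, had r = 0.948, while the others ranged from 0.531 for Tcf25 to 0.829 for Pih1d1. Myom2 stood at 40.5, 31.6 and 33.1 TPM in WT mice 1, 2 and 3, 34.0, 47.7 and 31.6 TPM in the KO mice, 35.2, 29.8 and 32.0 TPM in the P32L mice and 27.0, 28.7 and 38.5 TPM in the R287Q mice. KO mouse 2 was highest, as for 9 of the 10 enzymes, and R287Q mouse 1 was lowest.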

How the data were processed

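RNA sequencing of gastrocnemius gave 12 libraries, 3 mice in each of 4 groups, grouped by the genotype label. Per the submitters' processing notes, FastQC, HISAT2, StringTie and DESeq2 were used on mm10; versions, annotation and the counting of shared reads are not stated in the sources at hand. The design had allowed for TPM or its log2, and the deposited values are taken as log2 of TPM plus 1. Back-transformed here, the deposited columns sum to between 997591 and 998739 per library, close to the total of TPM. Depth is therefore unknown. All 12 libraries entered 1 limma fit with an intensity trend (limma 3.58.1, R 4.3.3) over 9152 of 30488 genes with a mean of 1 TPM or more. The 6 comparisons were two-sided, with Benjamini-Hochberg adjustment, and called at 0.05. The residual degrees of freedom were 8 and the prior 3.11, which takes the mice as independent. Mice with the same number mostly deviated in opposite directions, so that assumption is in doubt. The deposited values are labelled as adjusted, but what was adjusted is not explained. An adjustment by mouse number was not tested. After such a step 8 would be too many, and the p-values, intervals and fits without a mouse would rest on mice that are not independent. The fit was tested on simulated data, in which the mice were independent. Isozyme ratios were compared by exact permutation tests over mice (scipy 1.17.1, Python 3.11.15).

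The members and gene lists were chosen with earlier results of these data known. The genes named are all members, their isozymes and pseudogenes by symbol, the gene with the smallest p of each pathway list in each comparison with WT, the 2 members with the smallest p between lines, and the 5 genes most correlated with the members. An isozyme covered by this rule is not reported here. Near-identical copies were searched after seeing the data with blastn 2.17.0, from the longest coding GENCODE M21 transcript of each member against all transcripts. Symbols matched GENCODE for 29333 rows (96.2%). Alternatives were another pseudocount, no filter, a replicate block, the compared groups alone, no trend, robust variance, scaling without mitochondrial genes and their nuclear copies, by median of ratios and by quantiles, the slow-fibre mean as a covariate, copies added, and each mouse left out; slow-fibre and macrophage medians without each mouse were added after seeing the data.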

Additional observations from a re-analysis of the deposited data

How the results depend on the processing

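Across 11 other settings and the 12 fits that each left out 1 mouse, the count of enzymes called stayed at 0 in every comparison. Of 341 alternative log2 differences of the 10 enzymes from WT that were not identical to the reported value, 288 kept their direction and 53 changed it, and values ran from -0.33 to 0.35 with a lowest limma adjusted p of 0.431. The cause of the changes was not tested. With 3 mice a group the 95% intervals leave changes of the sizes given there unresolved, and since TPM keep no depth no counting error can be stated.

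The mice of a number did not vary together: 1 of 18 same-number pairs had a correlation of deviations over 0.1, against 23 of 36 other pairs, and the best match had its own number in 2 of 36 cases. The correlations ran from -0.526 to 0.244 for same-number pairs, most of them negative, and from -0.226 to 0.397 for other pairs. Mice of a number thus mostly deviated in opposite directions. The mean of the 10 enzymes, centred as above, was 0.23, -0.071, 0.073 and -0.23 in mouse 1 of WT, KO, P32L and R287Q. It was -0.048, 0.42, -0.19 and -0.19 in mouse 2 and -0.12, -0.013, -0.031 and 0.16 in mouse 3. Within each number these values nearly cancelled, although single mice stood far apart. Whether an effect of the number had been removed from the deposited values was not tested, and a count of positive correlations cannot show it. With a replicate block the counts of all genes called were 0, 0, 0, 2, 1 and 0 for KO, P32L and R287Q against WT, P32L and R287Q against KO, and R287Q against P32L, in that order, and no enzyme was called.

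In the same order the counts of all genes called as reported were 1, 4, 0, 2, 4 and 0. They were 0, 0, 0, 2, 4 and 1 with a pseudocount of 0.01, 20, 13, 34, 21, 43 and 24 with no filter on low values, 0, 1, 0, 0, 4 and 0 with the compared groups alone, 0, 0, 0, 3, 1 and 0 after rescaling without mitochondrial genes, 2, 23, 3, 2, 1 and 1 with median-of-ratios scaling, 3, 28, 1, 2, 1 and 1 with quantile normalization and 1, 3, 0, 2, 3 and 1 with the slow-fibre mean as a covariate. Leaving out 1 mouse at a time gave 0 to 2, 0 to 7, 0 to 1, 2 to 2, 1 to 5 and 0 to 0.

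Of the log2 differences between KO and WT, rescaling without mitochondrial genes turned Pygm to -0.067, Gpi1 to -0.049 and Gapdh to -0.033. Median-of-ratios scaling turned Pygm to -0.017. Quantile normalization turned Pygm to -0.15, Gpi1 to -0.058, Gapdh to -0.093 and Pkm to -0.016. The slow-fibre covariate turned Pygm to -0.072, Gpi1 to -0.025 and Gapdh to -0.032. In P32L, Pygm became -0.15 with the slow-fibre covariate, and Eno3 0.049 and Ldha 0.054 with quantile normalization. In R287Q, Pgam2 became 0.021, Eno3 0.0060 and Ldha 0.0088 after rescaling without mitochondrial genes, and Pgam2 0.012 with quantile normalization.

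Leaving out 1 mouse at a time, the log2 differences that changed sign ran as follows. In KO, Pygm ran from -0.20 to 0.14, Gpi1 from -0.12 to 0.093, Pfkm from -0.18 to 0.030, Aldoa from -0.077 to 0.20, Gapdh from -0.16 to 0.17, Pgam2 from -0.0044 to 0.35, Pkm from -0.070 to 0.22, Ldha from -0.022 to 0.23 and Slc25a11 from -0.025 to 0.21. In P32L, Pygm ran from -0.047 to 0.16, Aldoa from -0.15 to 0.040, Pgam2 from -0.20 to 0.15, Eno3 from -0.11 to 0.045, Pkm from -0.17 to 0.041, Ldha from -0.088 to 0.075, Hk2 from -0.17 to 0.014 and Phkg2 from -0.13 to 0.0049. In R287Q, Gapdh ran from -0.25 to 0.0037, Pgk1 from -0.045 to 0.18, Pgam2 from -0.23 to 0.12, Eno3 from -0.19 to 0.013 and Got2 from -0.034 to 0.24. Of the log2 ratios of an enzyme to its other isozymes, Pygm in P32L ran from -0.59 to 0.017, Pfkm in KO from -0.23 to 0.037, Pgam2 from -0.33 to 0.081 in P32L and -0.32 to 0.12 in R287Q, Eno3 in KO from -0.026 to 0.15, and Ldha from -0.31 to 0.37 in KO and -0.80 to 0.0014 in R287Q. Medians of the slow-fibre genes ran from -0.96 to 0.33 in KO and -0.19 to 1.04 in R287Q, and those of the macrophage markers from -0.14 to 0.56 in P32L and -0.17 to 0.63 in R287Q.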

Other observations

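The table holds 8 rows that carry a member's symbol with a pseudogene suffix. Gapdh-ps15 stood at 256 to 421 TPM over the 12 mice and Gapdh-ps16 at 162 to 269.6 TPM, which is 60.4% and 37.7% of the mean of the Gapdh row. Ldha-ps2 stood at 10.5 to 18.9 TPM, or 3.30% of Ldha. Gapdh-ps16 and Ldha-ps2 are not among the near-identical copies summed above. Aldoa-ps4, Gapdh-ps14, Ldha-ps, Ldha-ps3 and Pgk1-ps1 did not exceed 1.31 TPM in any mouse.

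Of 12 genes of fast fibres, 8, 10 and 2 of 12 had means above WT in KO, P32L and R287Q, with median log2 differences of 0.061, 0.061 and -0.20. Of the genes that define skeletal muscle, 5, 5 and 2 of 8 were above WT, with medians of 0.024, 0.072 and -0.13. Of erythroid markers, which summed to 993 to 2879 TPM, 4, 4 and 4 of 4 were above WT, with medians of 0.56, 0.23 and 0.11. Of adipocyte markers (212 to 1158 TPM), 5, 6 and 6 of 6 were above WT, with medians of 0.22, 0.33 and 0.39. Of fibroblast markers (138 to 262 TPM), 7, 5 and 6 of 7 were above WT, with medians of 0.37, 0.0042 and 0.069. Of Schwann cell markers (21.3 to 83.4 TPM), 5, 5 and 5 of 5 were above WT, with medians of 0.53, 0.33 and 0.22.

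Of endothelial markers (47.8 to 99.5 TPM), 3, 6 and 5 of 6 were below WT, with medians of 0.0066, -0.19 and -0.14. Of tendon cell markers (32.1 to 85.0 TPM), 5, 5 and 3 of 5 were below WT, with medians of -0.24, -0.39 and -0.13. Of smooth muscle and pericyte markers (76.3 to 124 TPM), 4, 3 and 2 of 6 were below WT, with medians of -0.046, 0.025 and 0.18. Of satellite cell markers (17.0 to 37.7 TPM), 2, 2 and 3 of 3 were below WT, with medians of -0.18, -0.056 and -0.20. Macrophage markers had 9, 9 and 8 of 9 above WT, with medians of 0.91, 0.24 and 0.28; without WT mouse 2 the medians were 0.51, -0.14 and -0.17. None of these genes was called by limma in any line, and the 3 comparisons share their WT mice.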
